A study of Mus musculus with 28 samples.

Results

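Gene expression in the amygdala was compared between mice that drank alcohol on every other day for a month (Chronic Drinking) and mice that had only water (Water). All Chronic and all Water mice of the series were taken, which gave 19 of its 28 mice. They came from a first batch of 3 Chronic and 4 Water mice and a second batch of 6 Chronic and 6 Water mice. The other 9 mice (Acute Drinking) had alcohol in a single session, and they enter here for the estimate of the spread and for side-by-side values. All groups were adult female C57BL6/J mice housed singly, and both drinking groups were offered 20% ethanol beside water. Chronic mice had alcohol up to the end of the drinking period, so that repeated drinking and the most recent session cannot be told apart in them. Tissue was micropunched from a region holding both the central and the basolateral amygdala, and RNA from each mouse was sequenced as a bulk sample. Both batches list 49477 genes in common, and tests were run on the 16266 that averaged 10 counts or more per mouse.

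The central and basolateral amygdala link aversive and rewarding stimuli to behavior, and both have long been studied in alcohol drinking. The basolateral part holds mainly glutamatergic projection neurons, and the central part holds mainly GABAergic neurons that release peptides such as corticotropin-releasing hormone, neurotensin and enkephalin. Alcohol acts on GABA-A and glutamate receptors, and it is broken down through acetaldehyde to acetate, which can serve as a donor for histone acetylation.

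Total counts ranged from 20004380 to 22569562 over the 19 mice. In the second batch every Chronic library but the shallowest was deeper than every Water library: totals were 20135215 to 20890964 in Chronic mice (median 20811093) and 20004380 to 20208978 in Water mice (median 20088116; exact 2-sided permutation test over 924 regroupings, p = 0.006494). In the first batch totals were 22164404 to 22569562 in Chronic and 20393352 to 22474159 in Water mice (exact p = 0.1714 over 35 regroupings). All 7 markers of the central amygdala and all 7 of the basolateral amygdala passed the filter, with summed normalized counts of 6491 to 8615 and 32809.7 to 47508 in Chronic mice. Markers of choroid plexus and ependyma varied most, and their sum ran from 344 to 44231 in the Chronic mice of the second batch and from 592 to 42326 in the Water mice. The p-values below measure the spread between mice, which the main edgeR fit estimates over all 28 mice, the Acute mice included.

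Differences between Chronic and Water mice were small. The quasi-likelihood test of edgeR, adjusted for batch and for all genes tested (Benjamini-Hochberg), called 3 genes at an adjusted p under 0.05, which is 0.0184% of the genes tested. *Klf2* and *Haghl* rose and *Kdm3a* fell. At an unadjusted p under 0.05 there were 783 higher genes (4.81% of all tested) and 919 lower genes (5.65%). The median size of the log2 fold change over all genes was 0.058, beside a median standard error of 0.063. Only 138 genes had a log2 fold change beyond 0.5 in either direction, and 65 of them had an unadjusted p under 0.05. DESeq2 with batch as a covariate gave no adjusted p to 7570 of the genes tested, *Klf2* among them. It called 38 genes (0.234% of all genes tested), of which 16 were higher and 22 lower. The highest adjusted p that edgeR gave to any of the 38 was 0.186. Genes named below with an adjusted p above 0.05 are therefore given as values.

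*Klf2* encodes a Krüppel-like zinc finger transcription factor, known for its induction by blood flow in endothelial cells and as an early response gene. Its TMM-normalized counts in the first batch were 141, 151 and 157 in the 3 Chronic mice and 99.5, 87.2, 114 and 118 in the 4 Water mice. They were 152 to 193 (median 167) in Chronic and 106 to 126 (median 117) in Water mice of the second batch. The lowest Chronic mouse thus stood above the highest Water mouse in each batch. Over both batches the means were 163 ± 15.9 (SD, n = 9) and 112 ± 11.5 (SD, n = 10), a rise of 45.4% in the fitted values (log2 fold change 0.54 ± 0.065, edgeR adjusted p = 6.51e-05). Errors of log2 fold changes are standard errors throughout. Each batch alone gave a similar value (0.51 ± 0.11 and 0.55 ± 0.081). *Klf4*, a related factor, had 0.32 ± 0.11 on the same scale (edgeR adjusted p = 0.293), with normalized counts of 75.3 to 117 (median 91.8) in Chronic and 45.6 to 89.6 (median 81.2) in Water mice of the second batch. All 8 endothelial markers passed the filter, with a median log2 fold change of -0.016 (0.10 and -0.053 in the first and second batch, with opposite signs) and 2 of them higher and 0 lower at an unadjusted p under 0.05 (4.81% and 5.65% of all genes). Their summed counts overlapped between the groups (3923 to 4121 in Chronic and 3768 to 4219 in Water mice of the second batch). *Cldn5*, a tight junction gene of these cells, had 0.13 ± 0.055 (edgeR adjusted p = 0.419). In bulk tissue a change in the number of cells of a type and a change in RNA per cell cannot be told apart.

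*Haghl* encodes a protein similar to hydroxyacylglutathione hydrolase, the second enzyme of the glyoxalase system that detoxifies methylglyoxal. Its normalized counts were 889, 962 and 978 in Chronic and 844, 802, 856 and 790.0 in Water mice of the first batch. In the second batch they ran 1048 to 1148 (median 1106) in Chronic and 828 to 1047 (median 967) in Water mice. The groups did not overlap in either batch, although the gap in the second batch was only from 1047 to 1048. The log2 fold change was 0.21 ± 0.036 (a rise of 15.3%, edgeR adjusted p = 0.0187), and it was 0.20 in the first and 0.21 in the second batch. For its relative *Hagh*, the hydrolase itself, the value was -0.020 ± 0.048 (edgeR adjusted p = 0.921). The call of *Haghl* lay near the threshold. It was lost when any of 8 mice was left out (Chronic mice 1, 3, 4, 38 and 39 and Water mice 6, 41 and 43), with an adjusted p of up to 0.0708, while the log2 fold change stayed between 0.18 and 0.22 when any 1 of the 19 mice was left out. The call was also lost under the offsets for GC content and length described below (adjusted p = 0.0526) and when only the 19 Chronic and Water mice were fitted (adjusted p = 0.141). *Haghl* overlaps *Narfl* on the opposite strand, and the strand setting of the quantification is not given in the sources used here.

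*Kdm3a* encodes a histone demethylase that removes repressive methyl marks and so favors transcription. In the first batch its normalized counts were 748, 741 and 707 in Chronic and 849, 851, 746 and 779.7 in Water mice. The second batch gave 626 to 745 (median 674) in Chronic and 787 to 848 (median 822) in Water mice. Every Chronic mouse of the second batch lay below every Water mouse, while in the first batch the highest Chronic mouse (748) lay just above the lowest Water mouse (746). The log2 fold change was -0.23 ± 0.036 (a fitted change of -14.5%, edgeR adjusted p = 0.00666), with -0.14 ± 0.057 in the first and -0.28 ± 0.044 in the second batch. The call held when any 1 of the 19 mice was left out, with an adjusted p of at most 0.0247, and it was lost under the offsets for GC content and length described below (adjusted p = 0.0526).

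**Figure D1:**
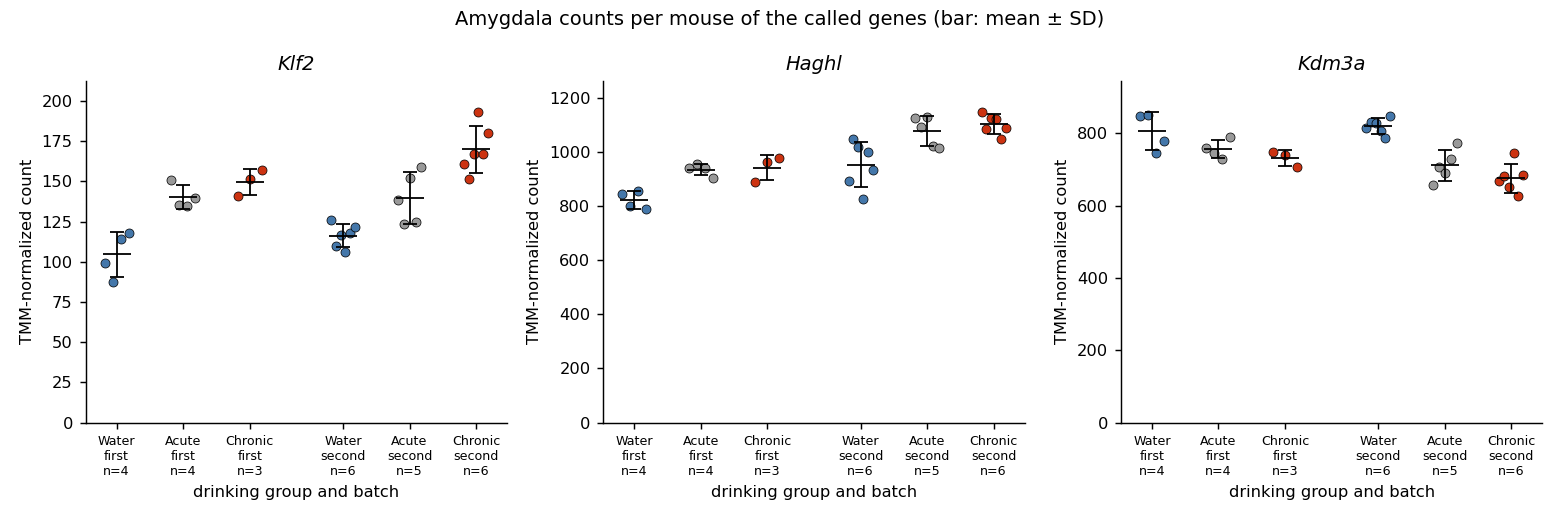
TMM-normalized counts (vertical axes, starting at 0) of *Klf2*, *Haghl* and *Kdm3a* by drinking group and batch, with a point for each mouse (Acute mice in grey) and bars at the mean ± SD. The Chronic mice lie above the Water mice for *Klf2* and *Haghl* in both batches, and below them for *Kdm3a* in the second batch.

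The promoters of the 3 called genes are printed to show how they differ in base composition, which is taken up with the GC content of the transcripts below. Each run covers 250 bases before and 50 bases after a transcription start in the RefSeq annotation of GRCm38.p6, 5′ to 3′ on the strand of the gene, with GC boxes (GGGCGG on either strand) in capitals. The *Klf2* window lies at chr8:72318812-72319111 on the plus strand, around the 5′ end of a gene annotated at chr8:72319033-72321656 in the GENCODE annotation. The *Haghl* window lies at chr17:25785537-25785836 on the minus strand (gene at chr17:25779843-25785673) and the *Kdm3a* window at chr6:71632868-71633167 on the minus strand (gene at chr6:71588972-71632990). Both latter genes have 3 listed starts, and the start nearest to the 5′ end of the GENCODE gene was taken.
Klf2 promoter: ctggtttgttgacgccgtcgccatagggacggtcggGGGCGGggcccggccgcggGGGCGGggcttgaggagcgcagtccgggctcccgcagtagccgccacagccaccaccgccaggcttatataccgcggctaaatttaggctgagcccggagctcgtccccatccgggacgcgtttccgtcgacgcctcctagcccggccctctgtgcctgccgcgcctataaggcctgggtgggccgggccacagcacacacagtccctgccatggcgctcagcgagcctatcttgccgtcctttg
Haghl promoter: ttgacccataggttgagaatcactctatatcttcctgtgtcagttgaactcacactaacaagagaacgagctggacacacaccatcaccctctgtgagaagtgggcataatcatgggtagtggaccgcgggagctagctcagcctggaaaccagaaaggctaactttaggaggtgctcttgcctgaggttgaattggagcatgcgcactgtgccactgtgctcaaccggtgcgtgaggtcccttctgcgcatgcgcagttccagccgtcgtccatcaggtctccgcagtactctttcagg
Kdm3a promoter: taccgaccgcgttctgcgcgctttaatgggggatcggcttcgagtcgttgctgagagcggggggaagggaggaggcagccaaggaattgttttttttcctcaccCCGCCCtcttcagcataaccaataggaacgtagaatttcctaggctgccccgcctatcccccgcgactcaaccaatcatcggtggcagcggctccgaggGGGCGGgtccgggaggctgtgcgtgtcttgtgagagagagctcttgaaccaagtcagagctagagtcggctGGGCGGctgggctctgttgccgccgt
The GC content of the windows was 69.3% for *Klf2*, 53.3% for *Haghl* and 60.7% for *Kdm3a*. The *Klf2* window holds 2 GC boxes, the *Kdm3a* window 3 and the *Haghl* window 0, and 35.7% of all 32851 promoter windows hold at least 1. None of the 3 holds the letters TGACGTCA of a cAMP response element (1.8% of all windows) or TATAAA of a TATA box (13.6%), read on both strands.

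A stricter look at single mice asked that the groups do not overlap in either batch. Only *Klf2* and *Haghl* did so upward (0.0123% of the genes tested), and only *Cttnbp2* and *Hipk3* did so downward (0.0123%). The latter were chosen after their values were seen. *Cttnbp2* encodes a cortactin-binding protein of dendritic spines, and its normalized counts were 1744, 1769.8 and 1716 in Chronic and 1905, 2179, 1876 and 1871 in Water mice of the first batch. The second batch gave 1777 to 1907 (median 1818) and 1931 to 2169 (median 2029.7). Every Chronic mouse lay below every Water mouse of its batch, and the log2 fold change was -0.16 ± 0.042 (edgeR adjusted p = 0.186). *Hipk3*, a homeodomain-interacting protein kinase, had normalized counts of 2149, 2097 and 2108 in Chronic and 2282, 2223, 2175 and 2168 in Water mice of the first batch, and 1924 to 2215 (median 2117) against 2228 to 2494 (median 2286) in the second. Its log2 fold change was -0.12 ± 0.029 (edgeR adjusted p = 0.181).

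Behind the called genes stood the rest of the 15 higher genes with the smallest p and the same sign in both batches. *Pcsk1n* encodes proSAAS, an inhibitor of the prohormone convertase that cleaves neuropeptide precursors, and its counts in the second batch ran 15558 to 17585 (median 16654) in Chronic and 13869 to 16358 (median 14798) in Water mice. *Doc2a*, a calcium sensor for transmitter release, ran 1445 to 1541 (median 1498) and 1146 to 1358 (median 1299.6). *Cltb*, a light chain of clathrin, ran 2427 to 2696 (median 2580.1) and 2130.4 to 2505 (median 2270.5). Chronic mice were the higher group by median for all 3 genes, and their log2 fold changes were 0.18 ± 0.038, 0.18 ± 0.040 and 0.14 ± 0.033 (edgeR adjusted p = 0.157 for each). *Enho*, which encodes the secreted peptide adropin, had 0.20 ± 0.050 (edgeR adjusted p = 0.181). The Ras-family GTPase gene *Diras1* had 0.17 ± 0.035, the leucine-rich repeat gene *Lrrc24* 0.20 ± 0.042, and the inositol phosphate kinase gene *Itpk1* 0.19 ± 0.043 (edgeR adjusted p = 0.157 for each). *Lrrc24* was larger in the first batch (0.32) than in the second (0.12) and *Itpk1* smaller (0.088 and 0.26), and neither difference between the batches passed adjustment (edgeR adjusted p = 0.774 and 0.809). The rest of the 15 were *Inafm1*, *Ankrd13d*, *Eml2*, *Cgref1*, *Btbd6* and *Mrps12*, with log2 fold changes from 0.13 to 0.20. *Nenf*, which encodes the secreted neurotrophic factor neudesin, is not among the 15 and was named by the study, and it had 0.24 ± 0.063 (edgeR adjusted p = 0.186).

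The 15 lower genes with the smallest p were chosen in the same way, and *Kdm3a* leads them. *Kat6a*, a histone acetyltransferase, had normalized counts of 1347, 1289.8 and 1203 in Chronic and 1391, 1324, 1414 and 1407 in Water mice of the first batch, and of 1217 to 1426 (median 1299) and 1367 to 1645 (median 1482) in the second. Its log2 fold change was -0.16 ± 0.034 (edgeR adjusted p = 0.157). *Chd1*, a chromatin remodeler of active genes, had -0.15 ± 0.035, and *Sp4*, a transcription factor abundant in neurons, had -0.17 ± 0.039 (edgeR adjusted p = 0.157 and 0.18). The medians of all 3 were lower in Chronic than in Water mice of the second batch. *Arhgap29* and *Arhgap20*, which encode GTPase-activating proteins, had log2 fold changes of -0.23 ± 0.050 and -0.21 ± 0.047 (edgeR adjusted p = 0.157 for each). *Larp4*, an RNA-binding protein that protects poly(A) tails, had -0.15 ± 0.034, *Osbpl8*, a lipid carrier at contacts of the endoplasmic reticulum, -0.20 ± 0.048, and *Dgkb*, a diacylglycerol kinase of striatal and cortical neurons, -0.16 ± 0.039 (edgeR adjusted p = 0.157, 0.18 and 0.181). *Ptchd4* had the largest value of the 15, at -0.59 ± 0.14, of which -0.22 in the first and -0.80 in the second batch. The rest were *Gm48550*, *Zfp955a*, *Cep295*, *Gm26691* and *Ubxn2b*, from -0.39 to -0.16.

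**Figure D2:**
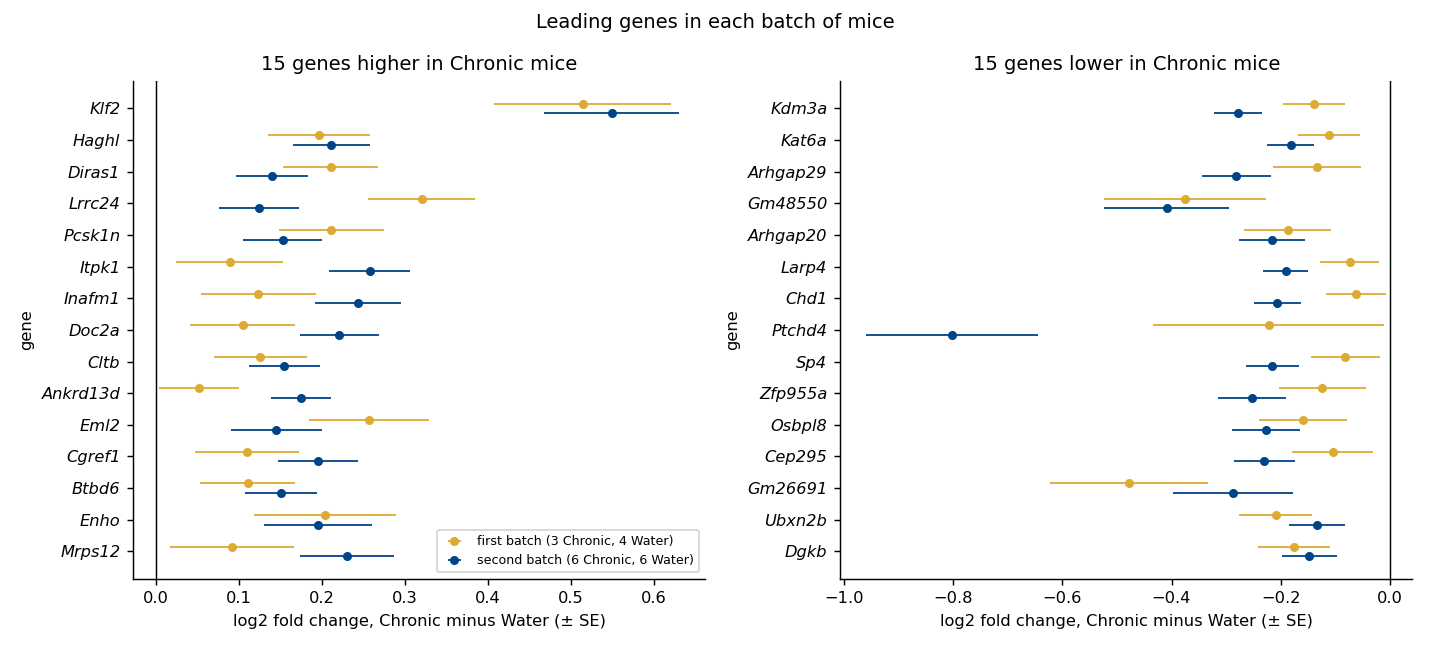
Log2 fold changes (horizontal axis, log2 of Chronic over Water, with standard errors) of the 15 higher and the 15 lower genes with the smallest p, shown for each batch. The genes were chosen to share a sign in both batches, and *Klf2* (0.51 and 0.55) and *Ptchd4* (-0.22 and -0.80) stand apart from the rest.

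Genes that write, erase or read histone marks were described by lists, in which members were chosen with earlier results of these data known. Among 18 histone lysine demethylases the median log2 fold change was -0.078, beside 0.0022 over all genes, with 8 members lower and 0 higher at an unadjusted p under 0.05, against 5.65% and 4.81% of all genes. *Kdm3a* was the only called member, and *Kdm7a* had -0.19 ± 0.059 (edgeR adjusted p = 0.241). Of 23 lysine methyltransferases, 1 was higher and 4 lower (median -0.068), the former being *Ehmt2*, a writer of repressive marks, at 0.068 ± 0.030. *Setd2*, which marks transcribed gene bodies, had -0.11 ± 0.036. The acetyltransferases and the NSL complex had 0 higher and 5 lower of 15 (median -0.060), and the chromatin remodelers 0 higher and 5 lower of 21 (median -0.053, from -0.0011 and -0.090 in the first and second batch), among them *Srcap*, which deposits a histone variant, at -0.15 ± 0.044.

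The lists that follow were counted in the same way, at an unadjusted p under 0.05, beside 4.81% higher and 5.65% lower of all genes. Histone deacetylases and their corepressors had 2 higher and 2 lower of 20. Their median was 0.023, which turned to -0.012 under offsets for GC content and length. The difference from the other lists was not tested. *Hdac11* and *Sirt3*, a deacetylase of mitochondria, were on the higher side (0.088 ± 0.030 and 0.11 ± 0.050), and *Hdac2*, a class I enzyme, and *Sin3a*, the scaffold of a deacetylase complex, on the lower side (-0.10 ± 0.029 and -0.12 ± 0.031; edgeR adjusted p = 0.222 and 0.192). Normalized counts of *Hdac2* in the second batch ran 1347 to 1492 (median 1477) in Chronic and 1473 to 1693 (median 1539) in Water mice. Those of *Sin3a* ran 769 to 864 (median 798) and 820.1 to 918 (median 885). Chronic medians were lower for both genes, and the batches gave close values (-0.10 and -0.10 for *Hdac2*, -0.11 and -0.12 for *Sin3a*). Mediator and general coactivators had 0 higher and 4 lower of 31 (median -0.013, from -0.050 and 0.017 in the first and second batch, with opposite signs), led by *Med1*, the subunit that binds nuclear receptors, at -0.13 ± 0.033 (edgeR adjusted p = 0.181). Of 35 RNA-binding splicing regulators, 1 was higher and 6 lower (median -0.029), among them *Celf1* at -0.10 ± 0.027 and *Hnrnpm* at -0.17 ± 0.047 (edgeR adjusted p = 0.192 and 0.208). The Krüppel-like and Sp factors, which hold *Klf2*, had 2 higher and 3 lower of 17 (median -0.022).

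Lists of protein synthesis, energy metabolism, protein breakdown and redox defense followed. Of 79 cytosolic ribosomal proteins, 72 had a positive log2 fold change, 17 were higher and 0 lower at an unadjusted p under 0.05, beside 51.0% of all genes with a positive value and 4.81% higher and 5.65% lower. The median was 0.075, from medians of 0.028 and 0.092 in the first and second batch. *Rpl18* of the large subunit had normalized counts of 1441, 1413 and 1563 in Chronic and 1426, 1456, 1504 and 1439.8 in Water mice of the first batch, and 1594 to 1790.2 (median 1648) and 1219 to 1552 (median 1495) in the second. Its groups overlapped in the first batch and not in the second, and its log2 fold change was 0.14 ± 0.044 (edgeR adjusted p = 0.241). *Rpl10a* had -0.13 ± 0.075. Ribosomal proteins have many near-identical pseudogenes, so that reads could be split between copies. The nuclear-encoded subunits of oxidative phosphorylation had 10 higher and 0 lower of 73 (median 0.050, -0.016 in the first and 0.083 in the second batch), among them *Cyc1* and *Uqcrc1* of complex III at 0.12 ± 0.042 and 0.095 ± 0.034. The 13 transcripts of the mitochondrial genome had 0 higher and 0 lower and a median of -0.019. Proteasome subunits had 6 higher and 0 lower of 31 (median 0.039), and cholesterol synthesis 5 higher and 0 lower of 22 (median 0.029), with *Mvk*, mevalonate kinase, at 0.18 ± 0.060. Metallothioneins and antioxidant enzymes had 3 higher and 0 lower of 23 (median 0.050). *Mt1*, a metal-binding stress protein, had normalized counts of 1555 to 2199 (median 1755) in Chronic and 1453 to 1731 (median 1707) in Water mice of the second batch, and a fitted log2 change of 0.18 ± 0.051 (edgeR adjusted p = 0.222).

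**Figure D3:**
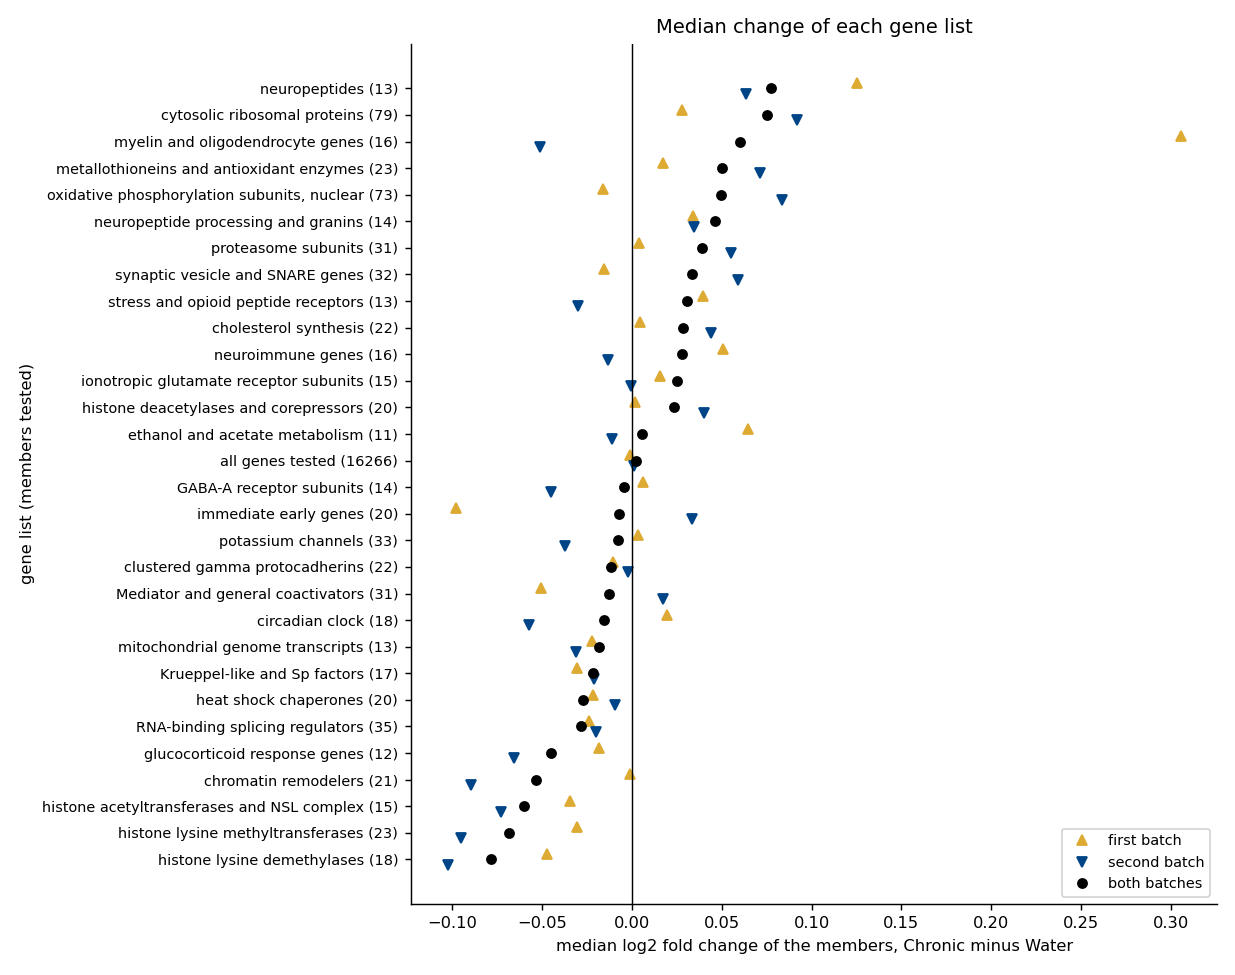
Median log2 fold change of Chronic over Water (horizontal axis, log2 scale) of the members of each gene list shown, with 11 or more tested genes, in both batches together and in each batch alone. Neuropeptides and ribosomal proteins have the highest and histone demethylases the lowest median, and every median over both batches lies between -0.078 and 0.078.

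Receptors and peptides through which alcohol and stress act in the amygdala were described in the same way, and their counts stand beside 4.81% higher and 5.65% lower of all genes at an unadjusted p under 0.05. Of 14 GABA-A receptor subunits, 0 were higher and 2 lower (median -0.0046, 0.0062 in the first and -0.045 in the second batch). *Gabra4* was among the lower, at -0.12 ± 0.045 (edgeR adjusted p = 0.337). Of 15 ionotropic glutamate receptor subunits, 1 was higher and 0 lower (median 0.025, 0.016 in the first and -0.00043 in the second batch). This was *Grin2d*, an NMDA receptor subunit of interneurons, with normalized counts of 612 to 781 (median 661) in Chronic and 526 to 682 (median 556) in Water mice of the second batch and a fitted log2 change of 0.21 ± 0.060 (edgeR adjusted p = 0.224). *Crhr1*, the receptor of corticotropin-releasing hormone, had counts of 244, 289 and 192 in Chronic and 208, 229, 208 and 188 in Water mice of the first batch, and 229 to 345 (median 286) and 208 to 251 (median 235) in the second. The groups overlapped, and its log2 fold change was 0.27 ± 0.087 (edgeR adjusted p = 0.243). It is among 13 stress and opioid peptide receptors, of which 3 were higher and 0 lower (median 0.030, batches 0.039 and -0.030). Among 13 neuropeptides (median 0.078), *Cartpt* alone was higher at an unadjusted p under 0.05 (0.33 ± 0.16), and neurotensin (*Nts*) had 0.24 ± 0.13 and enkephalin (*Penk*) -0.11 ± 0.21 (edgeR adjusted p = 0.535 and 0.892). Peptide processing and granin genes had 5 higher and 0 lower of 14 (median 0.046). Synaptic vesicle and SNARE genes had 5 higher and 1 lower of 32 (median 0.034, -0.016 in the first and 0.059 in the second batch). edgeR called no member of these 6 lists, while DESeq2 called 3 of the peptide processing and granin genes and 2 of the synaptic vesicle and SNARE genes, beside 0.234% of all genes.

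Base composition and length of the transcripts moved with the comparison. Protein-coding genes were split into 5 bins of about equal size by GC content, taken as the median over a gene's transcripts in the GENCODE annotation. In the lowest bin 13.6% of the genes were lower and 0.871% higher at an unadjusted p under 0.05, and in the highest bin 0.837% were lower and 13.1% higher. The median log2 fold change of these bins was -0.04 and 0.049, while the first batch alone gave -0.024 and 0.026 and the second -0.049 and 0.062. By length, 3.28% of the shortest bin were lower and 7.32% higher, against 10.3% and 2.37% of the longest bin. The 783 higher genes had a median GC content of 56.1% and the 919 lower genes of 45.7%, beside 50.4% over all genes. *Klf2* (61.6%) and *Haghl* (58.3%) are above this median and *Kdm3a* (45.5%) below it.

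The trend was also measured in single mice. The slope of a mouse's log2 expression on GC content was taken against the Water mean of its batch, in a test added after the data had been seen. In the second batch it ran from 0.0144 to 0.0946 per 10 percentage points in the 6 Chronic mice (median 0.0610) and from -0.0669 to 0.0429 in the 6 Water mice (median 0.0066; exact 2-sided permutation test over 924 regroupings, p = 0.008658). In the first batch it ran from 0.0070 to 0.0605 in Chronic and from -0.0192 to 0.0432 in Water mice (exact p = 0.1714 over 35 regroupings). The slopes of the Water mice average 0 in each batch by construction. Slopes of Acute mice ran from -0.0165 to 0.0259 in the first batch and from 0.0124 to 0.0740 in the second. Slopes on length did not pass the test in either batch (exact p = 0.8 and 0.1126). Once offsets took the trend on GC content and length out of every library, edgeR called *Klf2* alone (log2 fold change 0.48, adjusted p = 0.0012), while *Haghl* and *Kdm3a* had 0.16 and -0.20 (adjusted p = 0.0526 for both). The medians of the lists under these offsets were 0.053 for ribosomal proteins, -0.059 for demethylases, -0.047 for chromatin remodelers and 0.038 for neuropeptides. The median of the splicing regulators went from -0.029 to -0.0077, that of the ionotropic glutamate receptor subunits from 0.025 to 0.0018 and that of immediate early genes from -0.0075 to -0.052. The sign of the median turned for mitochondrial genome transcripts (-0.019 to 0.020), GABA-A receptor subunits (-0.0046 to 0.023), ethanol and acetate metabolism (0.0055 to -0.013) and neuroimmune genes (0.028 to -0.0072), for the deacetylases as given above, and for the markers of oligodendrocyte precursors (0.044 to -0.0079) and of mural cells (0.0051 to -0.013). The part of sequencing depth, which also set the groups of the second batch apart, was not tested.

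**Figure D4:**
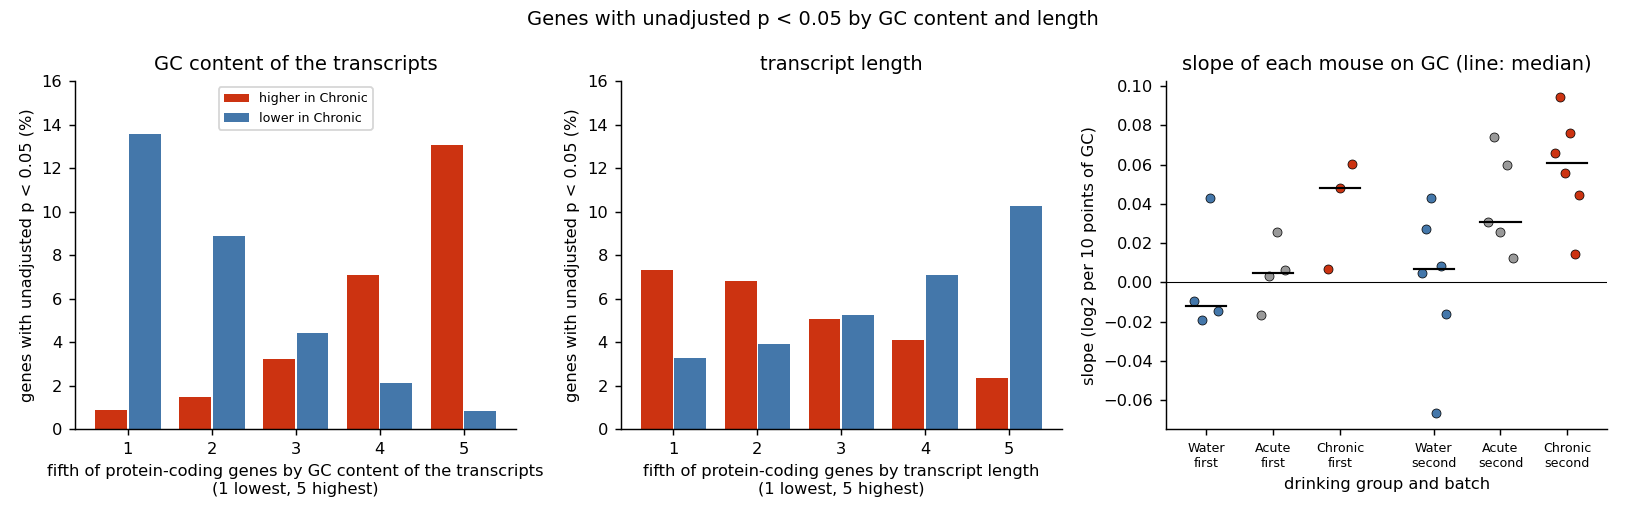
Protein-coding genes in 5 bins of GC content and of transcript length (horizontal axes), with the percent of genes higher or lower in Chronic mice at an unadjusted p under 0.05 (vertical axis, percent) and the GC slope of each mouse by group and batch (log2 per 10 percentage points, lines at the medians). The share of higher genes goes up and that of lower genes goes down with GC content, and the slopes run from 0.0144 to 0.0946 in the Chronic mice and from -0.0669 to 0.0429 in the Water mice of the second batch.

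*Bc1* is a short noncoding RNA of dendrites that represses local translation, and it lies as a single lincRNA exon at chr7:144914470-144914637 on the plus strand. Its transcript of 168 bases in the GENCODE annotation (GRCm38) is printed since no other abundant RNA among the genes named here differed by as much, with its 3 runs of 5 or more A in capitals, the longest of which has 23 bases.
Bc1 transcript: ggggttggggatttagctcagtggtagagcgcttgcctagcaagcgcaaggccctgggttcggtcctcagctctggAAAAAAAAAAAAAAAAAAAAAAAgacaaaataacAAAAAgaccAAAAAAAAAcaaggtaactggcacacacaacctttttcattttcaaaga
Normalized counts of *Bc1* were 4619, 3218 and 1588 in Chronic and 3502, 3849, 2131 and 2187 in Water mice of the first batch. In the second batch they ran 6009 to 17039 (median 11784) in Chronic and 3354 to 6498 (median 5191) in Water mice. The groups overlapped less in the second than in the first batch, and the log2 fold change was 0.11 ± 0.32 in the first, 1.15 ± 0.24 in the second and 0.83 ± 0.22 over both (edgeR adjusted p = 0.186). The difference between the batches had an edgeR adjusted p of 0.774, and *Bc1* resembles repeat elements elsewhere in the genome at its 5′ end, so that its counts are uncertain.

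*Myoc*, which encodes the secreted glycoprotein myocilin, had the largest positive value at 2.64 ± 0.90 (edgeR adjusted p = 0.272). Its normalized counts were 7.32, 91.9 and 12.8 in Chronic and 4.78, 5.01, 0.923 and 1.88 in Water mice of the first batch, and 1.03 to 40.0 (median 2.05) and 1.06 to 6.34 (median 2.65) in the second. A single Chronic mouse in each batch stood far above the other Chronic and Water mice, and without Chronic mouse 38 the log2 fold change was 1.92. Acute mice had 119, 1.85, 23.2 and 1.91 in the first batch and 2.10, 0, 5.25, 2.13 and 1.07 in the second. *Gm38287* had 1.12 ± 0.34, from 0.30 in the first and 1.75 in the second batch. On the lower side, *4930470H14Rik* had -0.81 ± 0.21 (edgeR adjusted p = 0.181), with 11.4 to 38.4 (median 17.9) in Chronic and 23.5 to 60.4 (median 42.4) in Water mice of the second batch. *Gm10012* had counts of 35.7, 39.6 and 52.0 in Chronic and 66.9, 91.3, 73.8 and 59.3 in Water mice of the first batch (edgeR adjusted p = 0.272). It was nearly absent from the second batch, at 0 to 1.05 in Chronic and 0 to 3.18 in Water mice. The count tables of the first and second batch list 50051 and 51073 genes, and the cause of this gap was not tested. *Gm10184* was listed at 0 in all 6 Chronic mice and in 3 of the 6 Water mice of the second batch, and its counts in the first were 22.9, 32.4 and 14.6 in Chronic and 54.5, 55.2, 49.8 and 27.3 in Water mice (edgeR adjusted p = 0.281).

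The effect of Chronic drinking was also compared between the batches. At an unadjusted p under 0.05, 1001 genes (6.15%) differed, and *Akap12* alone passed adjustment (second minus first batch -0.55 ± 0.092, edgeR adjusted p = 0.0465). The call was lost with RLE scaling and without the filter on low counts. *Akap12* encodes a scaffold that tethers protein kinase A. Its normalized counts in the first batch were 555, 569 and 501 in Chronic and 413, 450.3, 467 and 401 in Water mice. In the second batch they ran 442 to 495 (median 467) in Chronic and 486 to 596 (median 549) in Water mice. Every Chronic mouse of the first batch was above every Water mouse, and the order was mostly the opposite in the second, with log2 fold changes of 0.32 ± 0.073 and -0.22 ± 0.056.

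**Figure D5:**
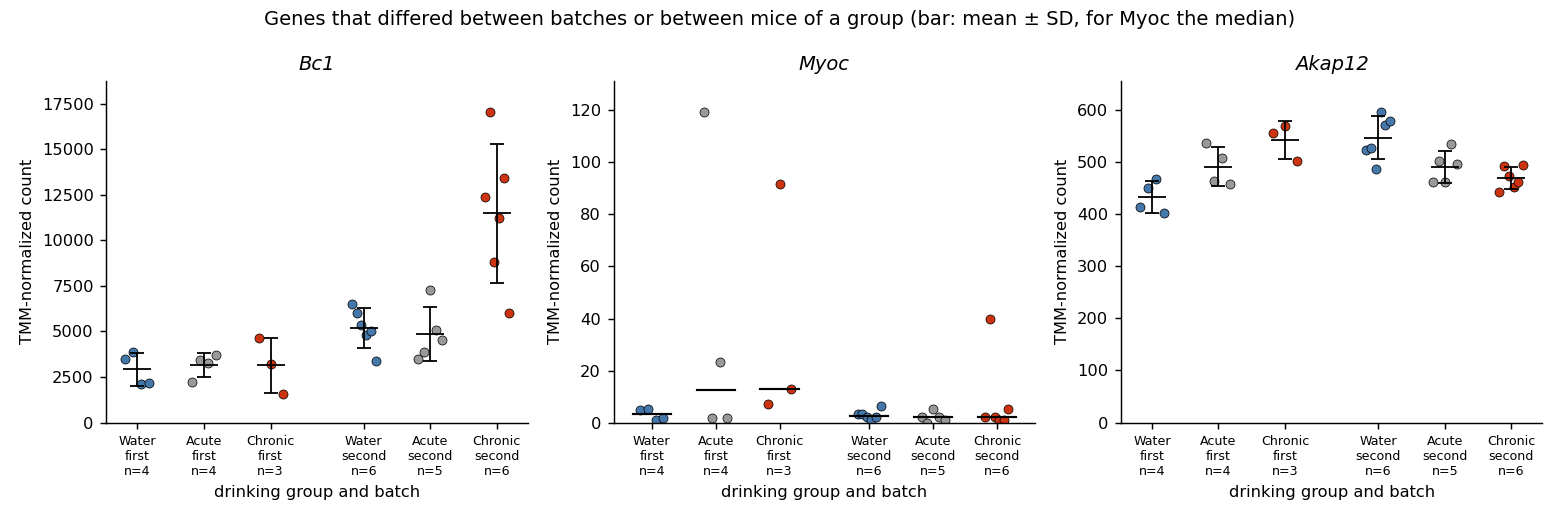
TMM-normalized counts (vertical axes) of *Bc1*, *Myoc* and *Akap12* by drinking group and batch, with a point for each mouse (Acute mice in grey) and bars at the mean ± SD, or at the median for *Myoc*. *Bc1* runs from 6009 to 17039 in the Chronic mice of the second batch, *Myoc* is high in single mice, and *Akap12* has opposite orders in the batches.

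Genes of myelin had other values in the first than in the second batch, a difference that was not tested for the list. The list of 16 had a median log2 fold change of 0.31 and -0.051 in the first and second batch and of 0.060 over both, with 1 member higher and 0 lower at an unadjusted p under 0.05, beside 4.81% and 5.65% of all genes. This was *Tubb4a*, a tubulin that neurons share (0.12 ± 0.036, edgeR adjusted p = 0.241). *Cnp*, an enzyme of noncompact myelin, had normalized counts of 3973, 4444 and 3953 in Chronic and 3822, 3878, 2977 and 2457 in Water mice of the first batch, and of 3076 to 4396 (median 3386) and 3255 to 3881 (median 3548) in the second. The groups overlapped in the second batch alone, and the log2 fold changes were 0.33 ± 0.15 and -0.025 ± 0.11. *Mbp*, the major basic protein of myelin, had -0.064 ± 0.062 over both batches (0.004 and -0.098 in the first and second), *Mog*, a surface glycoprotein, 0.13 ± 0.12, and *Sox17*, a transcription factor of endothelial cells and of the oligodendrocyte lineage, 0.17 ± 0.11 (edgeR adjusted p = 0.751, 0.74 and 0.598). Summed counts of the 9 oligodendrocyte markers tested were 40464 to 49830 in Chronic and 27950.2 to 43452 in Water mice of the first batch, and 48108 to 68286 and 54302 to 69939 in the second. *Opalin* was below the filter. The normalized counts of *Mbp* differed widely between the batches, at 1475 to 1673 in Chronic and 1489 to 1740.4 in Water mice of the first batch and at 21058 to 28363 and 22743 to 30064 in the second. The cause was not tested, and its levels and the marker sums can be read only within a batch.

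Markers of neighboring regions also had values away from 0. All 6 markers of the striatum had a negative log2 fold change, as did 7971 of the 16266 genes tested, with a median of -0.35 (-0.11 in the first and -0.50 in the second batch), and 1 was lower at an unadjusted p under 0.05, beside 5.65% of all genes. *Drd1*, a dopamine receptor, had -0.32 ± 0.16 (edgeR adjusted p = 0.474). The summed counts of the 6 markers in the second batch ran from 8623 to 22751 in Chronic and from 9701 to 20528 in Water mice, so the groups overlapped. The median of the central amygdala markers was 0.11 (0.22 and 0.020 in the first and second batch). The other regional lists turned in direction between the batches, with medians of 0.022 (-0.092 and 0.060) for the basolateral amygdala, 0.18 (-0.017 and 0.048) for the thalamus and -0.13 (0.17 and -0.31) for choroid plexus and ependyma. *Ppp1r1b*, a basolateral amygdala marker here that striatal neurons also express, had -0.30 ± 0.20 (edgeR adjusted p = 0.612). Of the hypothalamus markers *Trh* alone passed the filter, while *Hcrt*, *Pmch*, *Avp* and *Oxt* were below it. Neuron, astrocyte and microglia markers had medians of 0.034, 0.0077 and -0.025. The part of these markers in the values above was not tested.

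Chronic mice were last compared with Acute mice. The paper reports that Chronic mice drank more ethanol than Acute mice on the last drinking day and had higher blood ethanol. Repeated drinking and the amount of the last session therefore cannot be told apart here. edgeR called 0 genes between Chronic and Acute mice (lowest adjusted p = 0.998), with 723 genes (4.44%) at an unadjusted p under 0.05, and DESeq2 also called 0. The Acute and Chronic comparisons with Water share the 10 Water mice, and their values are therefore given side by side only. *Klf2* had a log2 fold change of 0.33 ± 0.066 in Acute and 0.54 ± 0.065 in Chronic mice, and the difference of Chronic from Acute mice was 0.21 ± 0.066 (edgeR adjusted p = 0.998). *Haghl* had 0.18 and 0.21, and *Kdm3a* -0.16 and -0.23. For *Bc1* the values were 0.018 in Acute and 0.83 in Chronic mice, with a difference of 0.82 ± 0.23 (edgeR adjusted p = 0.998). *Hdac2* had -0.0004 in Acute and -0.10 in Chronic mice, and *Grin2d* 0.068 and 0.21. List medians in Acute and Chronic mice were 0.074 and 0.075 for ribosomal proteins, -0.075 and -0.078 for demethylases, and 0.060 and -0.35 for striatum markers.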

How the data were processed

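Amygdala RNA of 28 female mice was sequenced in 2 batches. The authors quantified reads with Salmon 0.14.1, after quality checks with FastQC 0.11.8 per the labels, on GRCm38 (mm10), and deposited the estimated counts of each gene, as whole numbers and not normalized, in a table for each batch. Mice were grouped by their labels. The members and lists were chosen with earlier results of these data known.

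Tables were joined on the gene identifier, and those averaging 10 counts or more were tested by edgeR 4.0.16 (R 4.3.3; quasi-likelihood, TMM) over all 3 groups with batch as a covariate, with Benjamini-Hochberg adjustment over all genes. DESeq2 1.42.0 and ComBat-seq in sva 3.50.0 were alternatives, with RLE scaling, other filters, each batch alone, only the 19 mice, GC and length offsets, a replicate block and leaving out each mouse. DESeq2 without independent filtering was added after seeing the data. The edgeR test was tested on simulated data.

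Named genes were those called, the 15 with the smallest p in each direction and the same sign in both batches, the 3 largest changes in each direction at an unadjusted p under 0.01, and up to 2 members of each list in each direction, beside genes that the study names. *Cttnbp2*, *Hipk3* and *Akap12* were added for their values. Of 55 pairs of mice of the same group and batch, none was a duplicate (lowest chi-square per gene 3.95). Total counts set the counting error. Some genes and 1 gene list are not reported here. Unstated strand handling leaves overlapping genes on opposite strands uncertain.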

Additional observations from a re-analysis of the deposited data

Results flagged for a closer look

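Values were checked for a mouse far from the rest of its group and batch, by the gap to its nearest neighbor as a share of the range of the group. Of 252 groups of 4 or more mice checked, 22 (8.73%) held such a mouse, and chance alone gives about 5% of groups.

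Among the Chronic mice of the second batch, the total count of mouse 6 was low (20135215, nearest 20675140, share 0.714). Chronic mouse 2 was high for *Myoc* (40.0 normalized counts, nearest 5.33, share 0.89) and for *Sox17* (share 0.662). Chronic mouse 1 was high for *Rpl18* (share 0.633) and low for *Tlr7* (share 0.73). Chronic mouse 2 was low for *Sirt3* (share 0.741), and Chronic mouse 6 was high for *Hagh* (share 0.638).

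Among the Water mice of the first batch, mouse 41 was high for *Cttnbp2* (0.889), *Sp4* (0.925) and *Rpl10a* (0.891), and mouse 43 was low for *Gm26691* (0.866) and *Cldn5* (0.866). Water mouse 40 was low for *Enho* (0.94), and mouse 42 was high for *Uqcrc1* (0.914) and *Hagh* (0.903). Among those of the second batch, mouse 4 was high for *Hipk3* (0.663) and low for *Doc2a* (0.642), *Uqcrc1* (0.777) and *Mt1* (0.821). Water mouse 3 was low for *Zfp955a* (0.853) and high for *Gm10184* (0.709), and mouse 5 was low for *Gabra4* (0.657). Each number in parentheses is again the share of the range.

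The Chronic effect on *Akap12* differed between the batches, by -0.545 on the log2 scale (second minus first batch, edgeR adjusted p of the difference = 0.0465).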

How the results depend on the processing

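*Klf2* was called in every edgeR fit over both batches, while *Haghl* and *Kdm3a* lost their calls under the offsets and the block, and *Haghl* also in the fit of the 19 mice. Higher and lower genes called numbered 16 and 22 with DESeq2, 32 and 56 with ComBat-seq followed by DESeq2, and 11 and 7 with DESeq2 without independent filtering, an alternative chosen after seeing the data. Of the 38 genes of DESeq2, 37 were among the 88 of ComBat-seq and DESeq2, and *Klf2* has no adjusted p in default DESeq2. With GC and length offsets 1 gene was higher and 0 lower. In the first batch alone and in the second batch alone 0 genes were called in either direction, and with only the 19 Chronic and Water mice 1 was higher. Leaving out single mice gave 1 to 4 higher genes (4 without Water mouse 3) and 1 to 3 lower genes (3 without Chronic mouse 37 and 2 without Water mouse 3). For the difference between batches the count was 4 with DESeq2, 0 with RLE scaling, 0 without a filter and 0 to 1 without single mice. Between Chronic and Acute mice 1 gene was called without a filter. Some uncalled genes changed sign, namely *Mbp* (0.0047) and *Penk* (0.050) in the first batch alone, *Cnp* (-0.025) and *Mog* (-0.020) in the second batch alone and *Hagh* without Water mouse 2 (0.0045, and down to -0.035 without other mice). Of 2521 comparisons of single genes with an alternative, 2393 kept direction and call, 40 lost and 83 gained a call and 5 changed sign. The cause was not tested.

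With the replicate number as a block, 1 gene was higher (*Klf2*, adjusted p = 0.0182) and 0 lower, and with the replicate block and the offsets together again 1 and 0. Mice of the second batch with the same number correlated in their deviations from the group means by -0.134 to 0.233. Of the 6 pairs, 2 correlated best by their own number. With so few pairs this cannot tell whether mice of the same number share more than a number.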

Other observations

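Some gene groups that alcohol or stress could reach are given here as values, and their counts stand beside 4.81% higher and 5.65% lower of all genes at an unadjusted p under 0.05. None of 11 tested genes of ethanol and acetate metabolism reached an unadjusted p under 0.05 (edgeR). Their median log2 fold change was 0.0055 (0.065 in the first and -0.011 in the second batch). *Cat*, the catalase gene, had -0.031 ± 0.052. Of 20 immediate early genes, 1 was higher and 0 lower (median -0.0075, -0.098 in the first and 0.033 in the second batch). *Jund*, a Jun family factor, had 0.12 ± 0.037, and *Nr4a2*, an orphan nuclear receptor, -0.40 ± 0.20 (edgeR adjusted p = 0.241 and 0.486). Glucocorticoid response genes had 1 higher and 0 lower of 12 (median -0.045), with *Nfkbia*, the inhibitor of NF-kappa-B, at 0.20 ± 0.060 and *Per1* at -0.11 ± 0.052 (edgeR adjusted p = 0.239 and 0.478). Circadian clock genes had 0 higher and 2 lower of 18 (median -0.015, 0.019 in the first and -0.057 in the second batch). The lower were *Arntl* and *Clock*, the partners of the activating complex, at -0.099 ± 0.033 and -0.099 ± 0.042.

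Neuroimmune genes had 2 higher and 1 lower of 16 (median 0.028, 0.051 in the first and -0.013 in the second batch). *Myd88*, the adaptor of Toll-like receptors, had normalized counts of 93.2 to 125 (median 105) in Chronic and 80.6 to 98.1 (median 90.1) in Water mice of the second batch and a fitted log2 change of 0.23 ± 0.073, and *Tlr7*, which senses RNA, had -0.24 ± 0.11 (edgeR adjusted p = 0.243 and 0.47). Heat shock chaperones had 1 higher and 3 lower of 20 (median -0.027). Potassium channels had 3 higher and 4 lower of 33 (median -0.008, 0.0033 in the first and -0.037 in the second batch). Clustered gamma protocadherins, which share exons, had 0 higher and 1 lower of 22 (*Pcdhgb7*, -0.23 ± 0.059, edgeR adjusted p = 0.181). Erythrocyte markers had a median of 0.13, mural cell markers of 0.0051 (*Acta2* below the filter) and oligodendrocyte precursor markers of 0.044.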
